A study of Mus musculus with 4 samples.

Results

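The matrix genes other than collagens, 45 in all, were followed in white adipose tissue of mice under 2 diets, high fat (HFD) and low fat (LFD). They are the adhesive and matricellular glycoproteins, the elastic fibre proteins, the lysyl oxidases that crosslink them, the basement membrane proteins, the small leucine-rich proteoglycans, and the genes of hyaluronan and versican. A probe was taken where its gene name, or an older or newer name of the same gene, was 1 of the 45. All 45 were on the array, through 79 of its 41174 probes and among its 27617 genes. Of these, 44 genes and 68 probes were tested, because in at least 1 diet their signal stood well above background on both arrays, and the hyaluronan synthase Has1 was not.

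The animals were female C57BL/6 mice, an inbred laboratory strain, with no genetic change named in the labels. LFD mice ate a standard chow throughout, and HFD mice were moved from it to a high fat chow at 8 weeks of age and kept on it for 18 weeks, a model of diet-induced obesity. The same start age of 8 weeks and the same 18 weeks are recorded for the LFD samples. Each sample was adipose tissue mixed from 3 mice, with 2 samples per diet and 1 array per sample. The sources name no fat depot and do not say whether the 2 samples of a diet were separate pools. A p-value here therefore covers the spread among these samples alone, and that spread may be technical. RNA came from whole tissue, so fewer cells of a type and less RNA per cell cannot be told apart. The arrays shared 1 slide and 1 scan. Between 21312 (HFD replicate 2) and 27937 (LFD replicate 2) probes per array stood well above background. All 10 adipocyte markers listed were well above background on all 4 arrays.

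The extracellular matrix of fat surrounds each adipocyte with a basement membrane and holds the cells in a fibrous net. Glycoproteins such as fibronectin link cells to that net, matricellular proteins bind it and signal to cells without building it, and small leucine-rich proteoglycans coat collagen fibrils and set their spacing. Elastic fibres form when elastin is laid on fibrillin microfibrils, and lysyl oxidases join elastin and collagen chains by oxidising their lysines. In obesity adipose matrix is known to be remodelled.

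Promoter sequences are shown for 5 of the 10 genes that passed the test below: the gene that rose most (Crtac1), a neighbouring pair that moved in opposite directions (Prelp, which rose, and Fmod, which fell), and 2 genes whose promoters hold 2 of the motifs searched (Cyr61, which rose, and Ogn, which fell). Each runs 5′ to 3′ on the gene's strand from 250 bases before the start of the transcript, from the RefSeq promoter table of build GRCm38.p6. Crtac1 is chr19:42431739-42432038, minus strand, the more upstream of 2 windows the table gives it. Prelp is chr1:133921352-133921651, minus strand, and Fmod is chr1:134037004-134037303, plus strand. Cyr61, named Ccn1 in RefSeq, is chr3:145649936-145650235, minus strand. Ogn is chr13:49607765-49608064, plus strand. Capitals mark matches to the TATA box (TATAAA) or the TEAD motif (GGAATG, the site of the factors that act with YAP), on either strand.
Crtac1: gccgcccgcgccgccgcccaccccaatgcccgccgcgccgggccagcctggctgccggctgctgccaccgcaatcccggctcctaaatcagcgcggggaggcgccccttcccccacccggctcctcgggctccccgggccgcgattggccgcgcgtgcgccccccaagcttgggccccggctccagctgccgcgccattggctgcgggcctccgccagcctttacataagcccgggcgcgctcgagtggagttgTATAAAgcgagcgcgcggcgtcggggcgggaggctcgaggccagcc
Prelp: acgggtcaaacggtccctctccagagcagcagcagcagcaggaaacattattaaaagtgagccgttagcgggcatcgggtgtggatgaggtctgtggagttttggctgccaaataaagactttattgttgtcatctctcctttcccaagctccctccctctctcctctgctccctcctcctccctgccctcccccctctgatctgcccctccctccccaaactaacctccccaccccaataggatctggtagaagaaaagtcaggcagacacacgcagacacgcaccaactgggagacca
Fmod: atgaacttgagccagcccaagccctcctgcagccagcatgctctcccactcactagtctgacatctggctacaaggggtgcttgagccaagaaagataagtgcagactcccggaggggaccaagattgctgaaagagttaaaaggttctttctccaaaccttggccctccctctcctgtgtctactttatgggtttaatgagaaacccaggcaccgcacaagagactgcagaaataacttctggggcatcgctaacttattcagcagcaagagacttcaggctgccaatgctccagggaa
Cyr61: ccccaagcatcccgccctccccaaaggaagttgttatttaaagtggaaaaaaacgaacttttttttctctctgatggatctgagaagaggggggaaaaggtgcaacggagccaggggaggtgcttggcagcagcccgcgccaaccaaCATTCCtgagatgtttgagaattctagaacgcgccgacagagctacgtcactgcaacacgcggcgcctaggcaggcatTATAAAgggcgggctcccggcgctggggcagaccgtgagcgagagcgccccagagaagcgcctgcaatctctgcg
Ogn: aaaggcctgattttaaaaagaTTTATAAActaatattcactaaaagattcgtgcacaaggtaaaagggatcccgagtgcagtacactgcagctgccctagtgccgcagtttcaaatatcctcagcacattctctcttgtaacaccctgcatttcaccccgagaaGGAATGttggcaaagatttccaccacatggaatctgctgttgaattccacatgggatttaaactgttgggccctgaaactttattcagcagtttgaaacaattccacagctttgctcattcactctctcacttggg
In Cyr61 the TATA box began 25 bases before the start and the TEAD motif 103 bases before it. In Ogn the TATA letters lay 229 and 227 bases before the start, as overlapping matches on both strands, and the TEAD motif 86 bases before. In Crtac1 the TATA letters began 4 bases after the annotated start. The windows of Prelp and Fmod held none of the motifs searched. The table had windows for 25 of the 45 genes. The TATA box was in 6 of the 25 (Crtac1, Cyr61, Ogn, Postn, Thbs2 and Tnc), or 7 of their 30 windows, and in 13.6% of all 32851 windows in the table. Its letters began 26 bases before the start in Postn, 126 in Thbs2, and 205 and 126 in the 2 windows of Tnc. The TEAD motif was in 4 (Cyr61, Nid1, Ogn and Thbs4), or 4 of the 30 windows, and in 14.7% of all windows. The AP-1 motif (TGANTCA) was in 1, Tnxb, against 7.81% of all windows, and the CArG box, the site of serum response factor, was in 1, Lama2, against 1.63%. A gene with more than 1 window counts once among the 25, and a match describes letters only.

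Of the 44 genes tested, 7 were higher in HFD at an adjusted p under 0.05 (limma, Benjamini-Hochberg over all 26057 tested probes). That is 15.9% of them, against 5.74% of all 17739 genes tested. The test called 3 of the 44 lower, or 6.82%, against 5.61% of all genes. Over all genes that is 1019 higher and 995 lower; with median scaling in place of the 75th percentile it was 852 and 1334, and 8 and 3 of the 44. Crtac1, Prelp, Cyr61, Comp, Sparc, Tnc and Hspg2 rose, and Fbln1, Fmod and Ogn fell. The remaining 34 did not pass. Both HFD arrays lay above both LFD arrays in 16 of the 44, where 36.2% of all genes did, and below them in 11, where 32.7% of all genes did. The diets overlapped in the other 17. The median difference, HFD minus LFD, was 0.12 on the log2 scale, against 0.02 over all genes, and turned to -0.03 without LFD replicate 2. The median size of the difference was 0.35, against 0.27 over all genes. These genes also varied more between arrays of a diet: the median gap was 0.25 between the LFD arrays and 0.17 between the HFD arrays, against 0.16 and 0.11 over all genes.

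The calls depended on the arrays. Without LFD replicate 1, Crtac1 and Prelp alone of the 44 passed. Without LFD replicate 2, Crtac1, Prelp, Thbs2 and Loxl4 were higher and Spon1 lower. Without HFD replicate 1 or without HFD replicate 2 no member passed, and then 10 and 9 of all genes were higher and 9 and 9 lower in limma. An unadjusted p under 0.05 was reached by 12 of the 44 members and 4113 of 17736 genes without HFD replicate 1, and by 15 members and 3434 of 17737 genes without HFD replicate 2. Of the 10 called genes, 8 passed in none of these 4 settings, and their adjusted p with 1 array left out lay between 0.0504 and 0.244. With no filter on dim probes none of the 10 passed in limma (14 members and 5609 of 27617 genes then had an unadjusted p under 0.05), and with the replicate number as a block Crtac1 alone did (adjusted p 0.0461). Each of the 10 kept its direction in all 14 alternative settings tried. For most settings this was fixed in advance. In each of the 10 the diets did not overlap, so leaving out 1 array could not turn the sign. The filters, the block, the trend and robust options and the deposited table left the differences as they were.

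**Figure D1:**
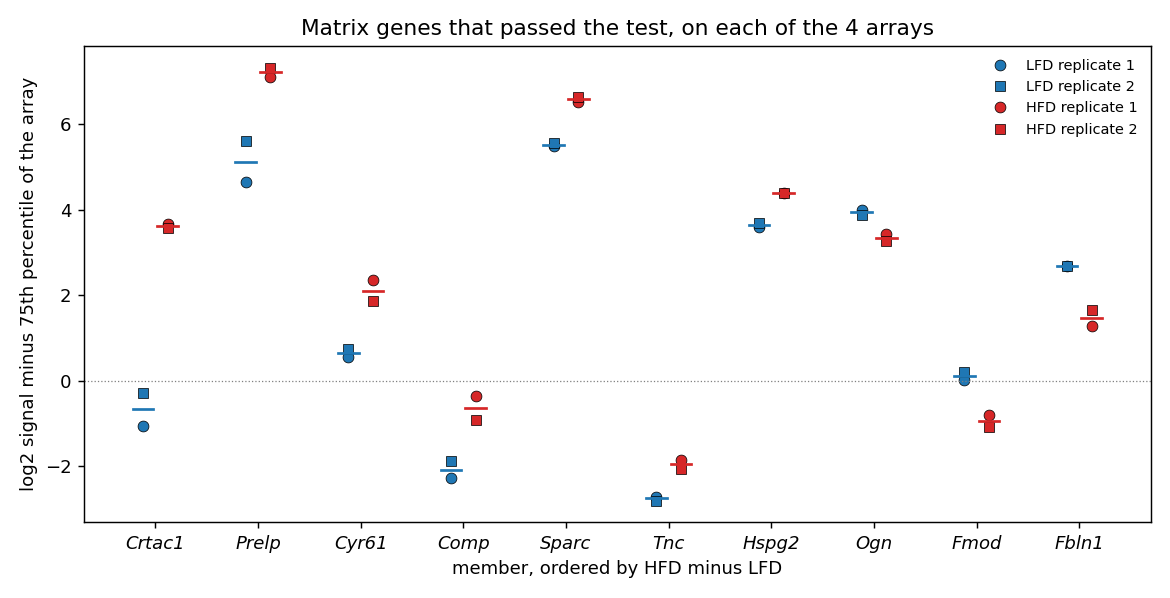
Log2 signal minus the array's 75th percentile (vertical axis) of the 10 matrix genes that passed the test, on each of the 4 arrays (circles replicate 1, squares replicate 2, blue LFD, red HFD), with the mean of each diet as a line. In each gene the 2 HFD arrays lie on 1 side of the 2 LFD arrays, from Crtac1 with a difference of 4.28 to Fbln1 with -1.22; the height of 1 gene is not to be set against that of another.

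Values below are log2 signals relative to the 75th percentile of the array, in the order LFD replicate 1, LFD replicate 2, HFD replicate 1 and HFD replicate 2. Among the 11 adhesive and multimeric glycoproteins, 3 rose (Crtac1, Comp and Tnc), or 27.3%, against 5.74% of all genes. None fell, against 5.61% of all genes. The median difference was 0.33, with 8 of the 11 above 0. Of these, Tnxb changed sign with quantile normalisation or median scaling. Without LFD replicate 2, Fn1, Postn and Tnxb turned to -0.03, -0.04 and -0.10. Both HFD arrays lay above both LFD arrays in 5 of the 11, where 36.2% of all genes did, and below in 1, where 32.7% did. Crtac1, a glycoprotein first known from cartilage, gave -1.05, -0.28, 3.67 and 3.57. Its probe lies at chromosome 19, positions 42358129 to 42358630 of mouse build mm9. The HFD arrays stood together and far above the LFD arrays, which were themselves 0.77 apart. The difference was 4.28 ± 0.28 (SE, n = 2 per diet), or 19.4-fold, with an adjusted p of 0.0139 in limma, and it lay between 3.89 and 4.67 with any 1 array left out (adjusted p 0.0428 to 0.0654). Comp, cartilage oligomeric matrix protein, which binds collagen, gave -2.28, -1.88, -0.35 and -0.91 (chromosome 8, 72905692 to 72905825, mm9). Both HFD arrays were above both LFD arrays, with a wider spread in HFD. The difference was 1.44 ± 0.25, or 2.72-fold (adjusted p 0.0433 in limma; 1.17 to 1.72 with 1 array left out, adjusted p 0.0688 to 0.122).

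Tenascin C (Tnc), a glycoprotein made in wounds and remodelled tissue, gave -2.71, -2.80, -1.86 and -2.05 (chromosome 4, 63620819 to 63620864, mm9). The diets did not overlap. The difference was 0.80 ± 0.12, or 1.74-fold, with an adjusted p of 0.0322 in limma; with 1 array left out it was 0.71 to 0.90 (adjusted p 0.0695 to 0.131). A further Tnc probe gave -3.96, -3.66, -3.68 and -3.10, and there the diets overlapped (0.42 ± 0.24, adjusted p 0.282). Tnc did not pass when its probes were averaged in place of taking the brightest. Its relative tenascin X (Tnxb), which holds collagen fibrils together, had a difference of 0.00 (adjusted p 0.994).

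The thrombospondins are secreted glycoproteins that bind cells, collagen and growth factors, and thrombospondin 1 can activate latent TGF-beta. Thbs2 gave 1.02, 1.48, 2.20 and 2.18. Both HFD arrays were above both LFD arrays, and the difference of 0.94 ± 0.18, or 1.92-fold, missed the threshold (adjusted p 0.0518 in limma, 95% interval 0.44 to 1.43). It passed with normexp background correction, median scaling, the trend and robust options or probes well above background on all 4 arrays, and without LFD replicate 2 (1.17, adjusted p 0.0480). Thbs1 gave 0.12, 0.01, 0.74 and 0.22 on its brightest probe, with no overlap of the diets and a wide gap between the HFD arrays (0.41, adjusted p 0.224). A dimmer Thbs1 probe at -2.61, -2.57, -1.85 and -2.03 did pass (0.65, adjusted p 0.0407), and the third gave 0.58 (adjusted p 0.0809). Thbs3 had the opposite sign, at 2.22, 1.82, 1.58 and 1.65, without passing (-0.41, adjusted p 0.175). Thbs4 had a difference of -0.11 (adjusted p 0.686) and was well above background on 1 of the 2 HFD arrays. A dimmer Thbs4 probe, not tested, had the opposite sign, at -4.99, -4.97, -3.71 and -3.97. It was well above background on 1 of the 2 HFD arrays and on neither LFD array.

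Fibronectin (Fn1), the main adhesive glycoprotein of connective tissue, gave 2.67, 2.39, 2.67 and 2.62. The diets overlapped, and the interval of the difference, 0.12, was -0.25 to 0.48 (adjusted p 0.568). Periostin (Postn), which helps collagen to be crosslinked, gave 3.84, 3.10, 3.93 and 3.67, with the LFD arrays 0.74 apart and an interval of -0.44 to 1.11. Tgfbi, a secreted protein induced by TGF-beta, had a difference of -0.07 (adjusted p 0.677).

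**Figure D2:**
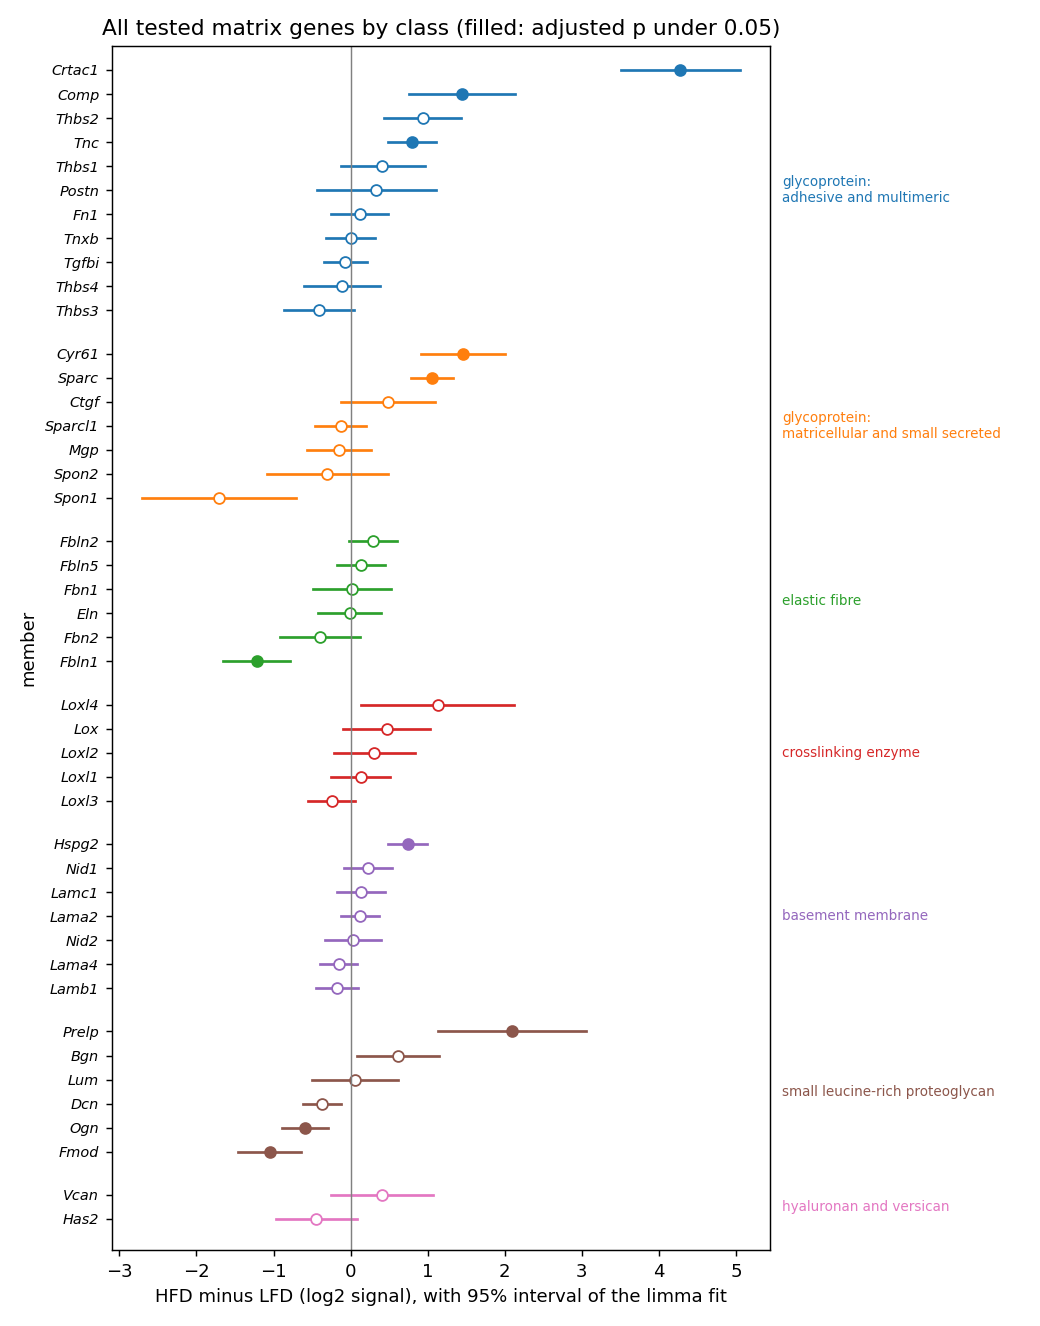
Difference HFD minus LFD in log2 signal (horizontal axis) for the 44 tested matrix genes, grouped by class, as points with the 95% interval of the limma fit from 2 arrays per diet; filled points passed an adjusted p of 0.05. The 7 filled points right of 0 lie in 4 classes, the 3 left of 0 lie in the elastic fibre and small leucine-rich proteoglycan classes, and none of the 5 crosslinking enzymes is filled.

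Of the 7 matricellular and small secreted proteins, 2 rose, Cyr61 and Sparc, or 28.6%, against 5.74% of all genes. None fell, against 5.61% of all genes, and the median difference was -0.13. Cyr61, an integrin-binding protein of the CCN family and a known target of YAP and TEAD, gave 0.56, 0.74, 2.35 and 1.86 (chromosome 3, 145310187 to 145310246, mm9). The HFD arrays were well above the LFD arrays. The difference was 1.46 ± 0.20, or 2.75-fold (adjusted p 0.0299 in limma; 1.22 to 1.71 with 1 array left out, adjusted p 0.0656 to 0.0963). Ctgf, the other CCN protein listed and also a known YAP target, gave 1.20, 1.77, 2.06 and 1.88. Both HFD arrays were above both LFD arrays by less than the gap within LFD, and Ctgf did not pass (0.48, adjusted p 0.214). Whether Cyr61 and Ctgf differed in their change was not tested.

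Sparc, a collagen-binding protein known to hold back adipocyte formation, gave 5.49, 5.57, 6.53 and 6.64 (chromosome 11, 55209449 to 55212106, mm9). The arrays of each diet lay close together and apart from the other diet. The difference was 1.06 ± 0.10, or 2.08-fold, with an adjusted p of 0.0192; with 1 array left out it was 1.0 to 1.11 (adjusted p 0.0504 to 0.111). A further Sparc probe also passed, at 5.30, 5.48, 6.22 and 6.16 (0.80, adjusted p 0.0299). Its closest relative, Sparcl1, gave 6.61, 6.40, 6.32 and 6.43, with overlapping diets and an interval of -0.46 to 0.20, against 0.78 to 1.33 for Sparc. Spon1, or F-spondin, had the lowest difference of the 44 genes and did not pass. It gave 2.09, 1.12, 0.08 and -0.30, with both HFD arrays below both LFD arrays and the LFD arrays 0.97 apart. The difference was -1.71 ± 0.37, or 3.28-fold lower in the means, with an adjusted p of 0.0605 in limma; Spon1 passed with normexp background correction, without LFD replicate 2 (-2.2, adjusted p 0.0490), and with probes well above background on all 4 arrays. A further Spon1 probe gave -0.65 (adjusted p 0.196). Mgp, the matrix Gla protein that holds back calcification, gave 5.28, 4.92, 4.95 and 4.94, with overlapping diets (-0.15, adjusted p 0.509). Spon2 overlapped too (-0.30, adjusted p 0.495).

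Among the 6 elastic fibre genes, Fbln1 alone fell, or 16.7%, against 5.61% of all genes. None rose, against 5.74% of all genes, and the median difference was 0.00. Fibulin 1 (Fbln1), found in elastic fibres and basement membranes, gave 2.69, 2.69, 1.28 and 1.66 (chromosome 15, 85115998 to 85116057, mm9). Both HFD arrays were below both LFD arrays, which had equal values. The difference was -1.22 ± 0.16, or 2.33-fold lower, with an adjusted p of 0.0275; with 1 array left out it was -1.41 to -1.03 (adjusted p 0.0671 to 0.0861). A further Fbln1 probe fell as well, from 1.13 and 0.98 to -0.45 and -0.15 (-1.35, adjusted p 0.0218). The other two fibulins lay on the other side of 0 without passing, Fbln2 at 0.29 (adjusted p 0.163) and Fbln5, which elastic fibres need in order to form, at 0.14 (adjusted p 0.418). Elastin (Eln) gave -0.62, -0.93, -0.70 and -0.87, with the HFD arrays between the LFD arrays (-0.01, adjusted p 0.972). Fibrillin 1 (Fbn1), the main protein of microfibrils, had a difference of 0.02 (adjusted p 0.961). Fibrillin 2 (Fbn2) gave -3.92, -4.18, -4.67 and -4.25 and stood well above background on neither HFD array, so that its HFD level is only a bound; it did not pass (adjusted p 0.220).

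None of the 5 lysyl oxidases passed. The median difference was 0.31, against 0.02 over all genes. Of the 5, 4 had positive differences, of which Loxl1 ranged from -0.02 to 0.28 with 1 array left out. Lox, the founding enzyme, gave -0.67, -0.31, 0.18 and -0.23, with both HFD arrays above both LFD arrays by a narrow margin (0.47, adjusted p 0.196). Loxl2 gave 1.82, 1.36, 2.0 and 1.80 and Loxl1 gave 2.47, 2.17, 2.50 and 2.39, both with overlapping diets (0.31 and 0.13, adjusted p 0.317 and 0.559). Loxl4 had the highest difference of the class and the widest gap of all 44 genes between the LFD arrays, at -4.88, -3.88, -3.38 and -3.12. It was well above background on 1 of the 2 LFD arrays (1.13 ± 0.36, adjusted p 0.118), and the value moved from 0.63 to 1.63 with the array left out, passing without LFD replicate 2 (adjusted p 0.0493). Loxl3 was dim and had the opposite sign, at -2.88, -2.77, -3.15 and -2.99 (-0.24, adjusted p 0.204; well above background on 1 of the 2 HFD arrays).

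Of the 7 basement membrane genes, perlecan (Hspg2) alone rose, or 14.3%, against 5.74% of all genes. None fell, against 5.61% of all genes, and the median difference was 0.12. Hspg2, the large heparan sulphate proteoglycan of basement membranes, gave 3.61, 3.69, 4.39 and 4.39 (chromosome 4, 137126392 to 137126451, mm9). The arrays of a diet agreed closely and the diets did not overlap. The difference was 0.74 ± 0.09, or 1.67-fold (adjusted p 0.0268 in limma; 0.70 to 0.78 with 1 array left out, adjusted p 0.0553 to 0.158). The other 6 genes had differences between -0.17 (Lamb1) and 0.23 (Nid1). Nidogen 1 (Nid1), which links laminin to collagen IV, gave 5.17, 5.38, 5.52 and 5.48 (adjusted p 0.241). Lama4, the laminin chain typical of adipocyte and vessel basement membranes, gave 3.03, 3.05, 2.88 and 2.90, below LFD on both HFD arrays by a small step (-0.15, adjusted p 0.300). A dim Lama4 probe passed as lower, at -2.39, -2.31, -2.92 and -3.17 (-0.69, adjusted p 0.0466), and was well above background on 1 of the 2 HFD arrays; another gave 0.00. Lama2, the laminin chain best known from muscle, gave 0.72, 0.68, 0.84 and 0.79 (0.12, adjusted p 0.409). Lamc1 and Nid2 had differences of 0.14 and 0.03.

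Of the 6 small leucine-rich proteoglycans, Prelp rose, or 16.7%, against 5.74% of all genes. Fmod and Ogn fell, or 33.3%, against 5.61% of all genes. The median difference was -0.16. Prelp, which ties basement membranes to the connective tissue beneath, gave 4.65, 5.62, 7.12 and 7.33 (chromosome 1, 135806934 to 135806993, mm9). Both HFD arrays were far above the LFD arrays, which were 0.97 apart. The difference was 2.10 ± 0.35, or 4.28-fold (adjusted p 0.0408 in limma; 1.61 to 2.58 with 1 array left out, adjusted p 0.0470 to 0.166). A dimmer Prelp probe gave -2.63, -1.76, -0.50 and -0.67, with both HFD arrays again on top, and missed the threshold (1.61, adjusted p 0.0529). Fibromodulin (Fmod), which binds fibrillar collagen, gave 0.02, 0.21, -0.79 and -1.09 (chromosome 1, 135943998 to 135944057, mm9). Both HFD arrays were below both LFD arrays. The difference was -1.05 ± 0.15, or 2.07-fold lower (adjusted p 0.0322 in limma; -1.20 to -0.90 with 1 array left out, adjusted p 0.0717 to 0.143). In the RefSeq gene order Prelp and Fmod are neighbours on chromosome 1 with no protein-coding gene between them, so the pair that lie side by side ran in opposite directions.

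Osteoglycin (Ogn), also called mimecan, gave 4.0, 3.88, 3.43 and 3.27 (chromosome 13, 49719549 to 49719608, mm9). The HFD arrays were below the LFD arrays by a modest step. The difference was -0.59 ± 0.11, or 1.51-fold lower (adjusted p 0.0487 in limma; -0.67 to -0.52 with 1 array left out, adjusted p 0.0742 to 0.244), and it did not pass with quantile normalisation. Ogn lies in a cluster with 3 related genes, Omd, Aspn and Ecm2, which are not among the 45. Omd (-0.54, adjusted p 0.118) and Ecm2 (-0.38, adjusted p 0.132) lay on the same side of 0 and Aspn on the other (0.34, adjusted p 0.119), and none of the 3 passed. Decorin (Dcn), the most widely studied of the class, a binder of collagen and TGF-beta, gave 7.55, 7.60, 7.19 and 7.22. Each diet's arrays nearly coincided and the diets did not overlap (-0.37 ± 0.09, adjusted p 0.0756 in limma); Dcn passed with the mean of its probes, with the trend and robust options and with probes well above background on all 4 arrays. A dim Dcn probe, well above background on 1 of the 2 HFD arrays, passed as lower at -2.55, -2.66, -3.49 and -3.81 (-1.05, adjusted p 0.0309). Lumican (Lum), which lies beside Dcn on chromosome 10, gave 6.04, 5.54, 5.96 and 5.73, with overlapping diets (0.06, adjusted p 0.860). Biglycan (Bgn), the nearest relative of decorin, ran above LFD on both HFD arrays, at 0.47, 0.00, 0.94 and 0.76, without passing (0.62, adjusted p 0.113), and its further probe gave 0.50 (adjusted p 0.0564).

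Hyaluronan is a long sugar chain made at the cell surface by the Has enzymes, and versican (Vcan) is the large proteoglycan that binds it. Neither of the 2 tested genes passed. Has2 gave -1.0, -1.45, -1.78 and -1.56, below LFD on both HFD arrays (-0.45, adjusted p 0.192), and a second Has2 probe gave -0.61 (adjusted p 0.190). Vcan gave -2.56, -3.13, -2.26 and -2.62, with overlapping diets (0.41, adjusted p 0.305); 2 of its 5 probes were tested, and both gave 0.41. Has1 gave -4.74, -4.81, -4.17 and -4.05, none of them well above background, so no fold is given.

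For 20 of the genes more than 1 probe was tested. Of the 24 further probes, 22 had the sign of the brightest one, and the exceptions were a probe of Fn1 (-0.03) and a probe of Lama4 (0.00). A second Crtac1 probe, well above background on 1 of the 2 LFD arrays, gave -4.55, -4.44, -1.55 and -1.70, with the diets as clearly apart as on the first (2.87 ± 0.11, adjusted p 0.0101). Probes of 1 gene share the RNA of the same 4 samples and are not replicates.

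**Figure D3:**
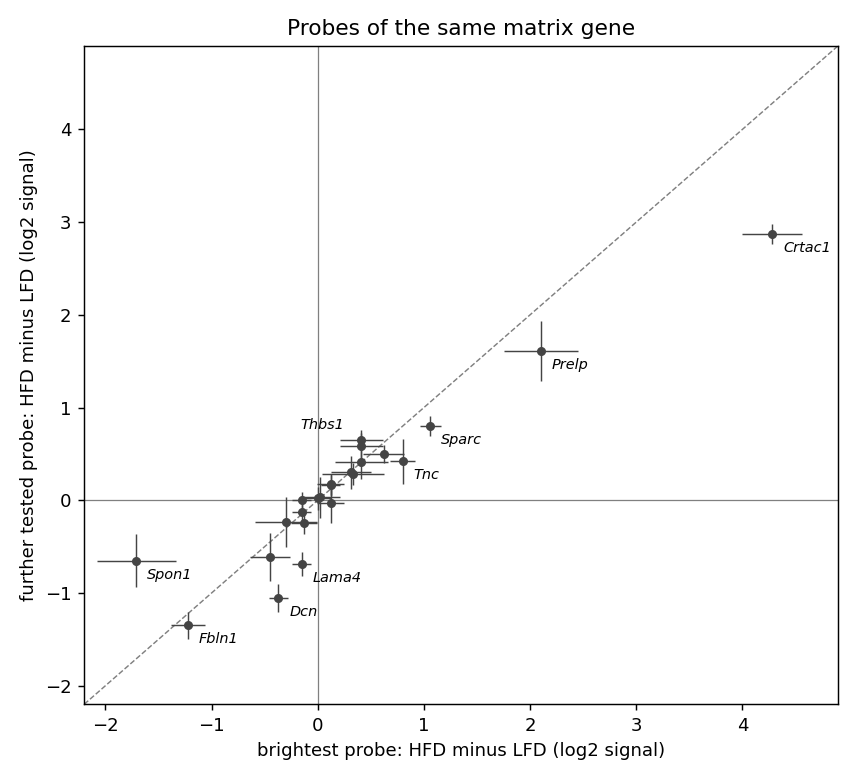
Difference HFD minus LFD in log2 signal of the brightest tested probe (horizontal axis) against that of each further tested probe of the same gene (vertical axis), 24 further probes of 20 genes, with SE bars from the limma fit; the dashed line marks equality. Crtac1 and Prelp lie high on both axes and Fbln1 low on both, whereas Spon1 has -1.71 on 1 probe and -0.65 on the other, and the dim probes of Dcn (-1.05) and Lama4 (-0.69) lie lower than the bright ones (-0.37 and -0.15).

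The other genes of the matrix were taken from lists outside the 45. Their shares stand beside 5.74% higher and 5.61% lower among all genes tested, and whether any list differed from these was not tested. Of 40 further matrix glycoproteins tested, 4 were higher (10%) and 1 lower (2.5%) in HFD, with a median of -0.03. Among them the milk fat globule protein Mfge8 (1.13, adjusted p 0.0201 in limma) and Svep1 (1.37, adjusted p 0.0208) rose. Of 26 further proteoglycan and hyaluronan genes, 6 were higher and 3 lower, with a median of -0.10. Cell-surface proteoglycans lay on both sides: syndecan 3 (Sdc3, 1.30, adjusted p 0.0178) and glypican 1 (Gpc1, 1.95, adjusted p 0.0178) rose and glypican 3 (Gpc3, -1.15, adjusted p 0.0181) fell. Of 15 collagen-modifying enzymes and helpers, 2 rose (13.3%) and none fell, with a median of 0.28. They were the lysyl hydroxylase Plod1 (0.71, adjusted p 0.0267 in limma), which prepares lysines for crosslinking, and Pcolce2 (0.81, adjusted p 0.0431), a helper of procollagen cleavage. Of 20 matrix receptors, 2 rose (10%), the integrin chains Itgb5 (0.70, adjusted p 0.0300 in limma) and Itga7 (1.24, adjusted p 0.0342), and none fell. Of 16 TGF-beta pathway genes, 2 rose (12.5%), among them Tgfb1 (0.89, adjusted p 0.0240 in limma), a ligand of the pathway, and none fell. Of 26 collagen chains, 9 were higher (34.6%) and 4 lower (15.4%), with a median of 0.41. For the 44 non-collagen genes these were 7 (15.9%), 3 (6.82%) and 0.12. The difference between these 2 groups was not tested.

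Markers of other cells also differed between the diets. Their counts stand beside 5.74% higher and 5.61% lower among all genes tested. Summed signals are given as multiples of the array's 75th percentile. The 14 macrophage markers summed to 223 and 199 in LFD and 359 and 378 in HFD, and 12 of the 14 were higher. The 12 mesothelium markers summed to 42.8 and 44.9 in LFD and 14.9 and 11.6 in HFD, and 11 were lower. The epithelium markers summed to 5.42 and 6.99 in LFD and 0.651 and 0.764 in HFD, with 3 of the 5 tested lower and Epcam, Krt15, Elf5, Elf3 and Cldn4 at background in both diets. The 12 fibroblast and progenitor markers summed to 181 and 170 in LFD and 184 and 198 in HFD, with 3 lower (Pdgfra, Dpp4 and Twist2) and none higher. Their differences, 6 positive and 6 negative, ran from -0.88 to 0.46. The 10 adipocyte markers summed to 1540 and 1670 in LFD and 1470 and 1570 in HFD, with Retn lower and none higher past the threshold. Their differences, 4 positive and 6 negative, ran from -0.90 to 2.18. Endothelial and smooth muscle or pericyte markers had no call among 12 and 11. The lymphocyte markers summed to 8.20 and 1.74 in LFD and 2.22 and 3.41 in HFD, so that LFD replicate 1 stood apart, and none of the 8 tested passed. The 8 skeletal muscle markers summed to 2.21 and 3.52 in LFD and 4.76 and 3.40 in HFD, with a median difference of 0.57 and 1 higher. The Schwann cell markers summed to 37.8 and 48.7 in LFD and 36.3 and 39.4 in HFD, with 1 of the 5 tested lower. The cartilage and tendon markers summed to 4.07 and 3.12 in LFD and 4.39 and 3.35 in HFD, with 1 of the 6 tested higher and 1 lower and with Tnmd and Matn1 at background. The part of any of these cell types in the differences above was not tested.

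**Figure D4:**
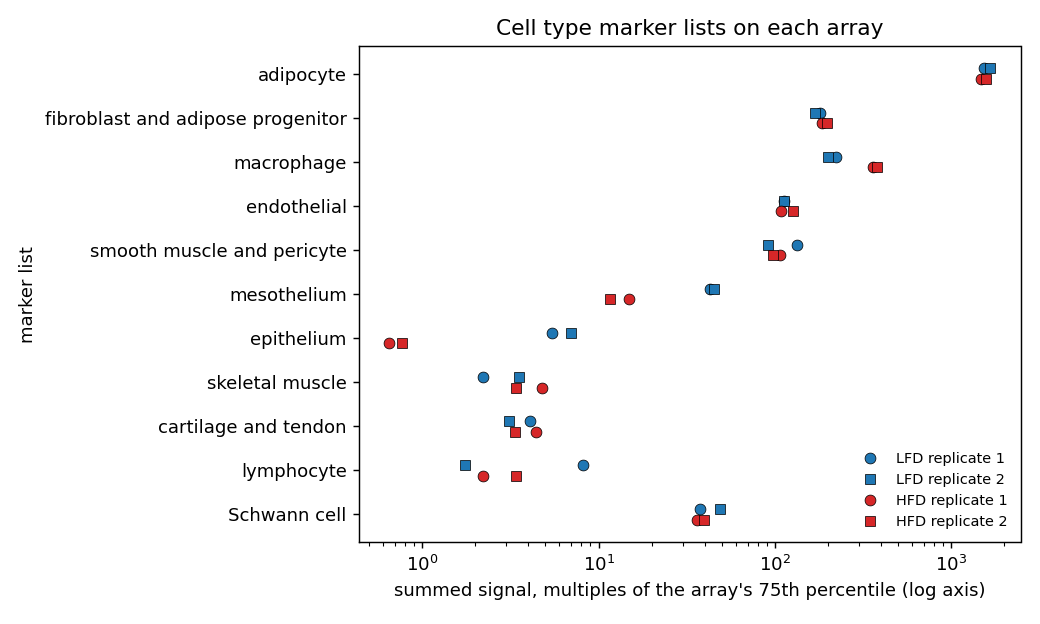
Summed signal of each cell type marker list, in multiples of the array's 75th percentile on a log axis, on the 2 LFD arrays (blue) and the 2 HFD arrays (red). The macrophage sums are higher in HFD (359 and 378 against 223 and 199), the mesothelium and epithelium sums are lower, and the fibroblast and adipocyte sums differ little in comparison.

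In 40 of the 44 genes the brightest probe was well above background on all 4 arrays. When only such probes were tested, 8 of the 40 were higher, against 10.8% of the 14796 genes tested that way, and 5 were lower, against 8.85%. Thbs2, Dcn and Spon1 were the members added. At least a 2-fold difference was reached by 5 of the 7 genes that rose and 2 of the 3 that fell.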

How the data were processed

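RNA of white adipose tissue, 500 ng labelled per sample, was hybridised to 4 one-colour arrays, with 2 for each diet, per the labels. The authors deposited linear spot intensities from Feature Extraction, background-subtracted per the file headers; the headers name version 11.0.1.1, whereas version 11.5.1.1 stands in the submitters' processing notes. Dividing scanner signals by the values of the deposited series matrix showed that these are a ratio of signal to the 75th percentile of each array. The columns had medians of 0.117, 0.127, 0.130 and 0.131; the matrix is linear, not centred, and runs with the signal. It was used as an alternative.

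Each array held 43379 spots that were not controls, for 41174 probes. Spots flagged as outliers were left out, spots of a probe averaged, and log2 signals set relative to the array's 75th percentile. Names were updated by accession through RefSeq tables (27675 probes matched); probe positions are the files', in mm9, and no annotation of that build was used. The 26057 probes that in at least 1 diet stood well above background on both arrays were tested with limma 3.58.1 in R 4.3.3 (data.table version 1.17.8; lmFit and eBayes, two-sided, 2 residual degrees of freedom, prior 2.24) with Benjamini-Hochberg adjustment over all of them. A gene is its brightest tested probe. An exact permutation of 2 against 2 arrays could not go below p = 0.333 for a single gene. The number of arrays limits the precision.

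On simulated data for HFD against LFD over 26057 probes, 50 genes were changed at each of 4 sizes. Of those changed 2-, 4-, 8- and 16-fold, 14%, 74%, 92% and 96% were recovered, so most 2-fold changes were missed in that setting. In the data far more genes differed: 6189 of 17739 had an unadjusted p under 0.05 in limma. The Benjamini-Hochberg cut-off depends on that number, so the simulated shares need not hold for these arrays.

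The members and lists were chosen with earlier results of these data known. Named in the text are all members, up to 3 genes of smallest p past the threshold for the other matrix lists, and some markers at background. No gene of the collagen list is named. The neighbours of Ogn, Pdgfra, Dpp4, Twist2 and Retn were named after their values were seen. A gene that meets the rule is not reported here. Alternatives were other background correction and scaling (normexp with offset 50, quantile, median), the deposited table, other filters, the mean of probes, flagged spots kept, trend and robust options, a replicate block and each array left out.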

Additional observations from a re-analysis of the deposited data

How the results depend on the processing

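The 10 called members kept their direction in all 14 alternatives, which most of these settings could not have changed, as said above. The deposited table and keeping flagged spots gave the same counts, 7 members higher and 3 lower. The deposited values are the same signals set relative to the same percentile, so their agreement is no separate check. With no filter on dim probes 0 members and 0 of all genes passed in either direction in limma, although 14 members and 5609 of 27617 genes had an unadjusted p under 0.05; the cause was not tested. With probes well above background on all 4 arrays 5 members were lower, and 1599 of all genes were higher. With normexp 1618 of all genes were higher, and with trend and robust options 1826 were higher and 1808 lower. With one array left out, 0 to 4 members were higher and 0 to 1 lower, and 9 to 470 of all genes were higher and 9 to 341 lower, with the median of the members between -0.03 and 0.17. Each such fit rests on 1 residual degree of freedom and assumes that the lone array varies like the others.

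The replicate numbers are only numbers in the labels, and deviations of same-numbered arrays correlated with r = -0.00458 over tested probes (2 pairs). With the replicate number as a block, 1 member was higher (Crtac1, adjusted p 0.0461) and 0 lower, against 220 and 208 of all genes; 16 of the 44 members and 6217 of 17739 genes had an unadjusted p under 0.05. With 1 slide for all 4 arrays, no block for the slide could be fitted.

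Only members that did not pass changed sign. Those were, with normexp, Thbs4 (0.09), Fbn2 (0.02) and Lum (-0.04). With quantile normalisation they were Tnxb (-0.07), Fbn1 (-0.05), Eln (0.00 after rounding) and Nid2 (-0.02), and with median scaling Tnxb (-0.09), Fbn1 (-0.07), Nid2 (-0.05) and Lum (-0.03). With one array left out the ranges were -0.03 to 0.26 for Fn1, -0.04 to 0.70 for Postn, -0.14 to 0.01 for Tgfbi, -0.10 to 0.10 for Tnxb, -0.33 to 0.11 for Thbs4, -0.69 to 0.09 for Spon2, -0.33 to 0.03 for Mgp, -0.19 to 0.22 for Fbn1, -0.17 to 0.15 for Eln, -0.02 to 0.28 for Loxl1, -0.09 to 0.16 for Nid2 and -0.19 to 0.30 for Lum. The cause of these shifts was not tested. Signals near background limit Thbs4, Loxl3, Loxl4, Fbn2 and Has1.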
